A study of Mus musculus with 6 samples.

Results

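The FNDC genes encode proteins built around fibronectin type III domains, and FNDC4 is the ligand on which the cells of this study were sorted. The 8 members are defined by gene symbol (Fndc1, Fndc3a, Fndc3b, Fndc4, Fndc5, Fndc7, Fndc8 and Fndc9), and 7 of them had 1 transcript cluster of their own among the 19938 genes compared. A transcript cluster is a group of probes read together. The array annotation used listed no cluster under the symbol or gene ID of Fndc5, so Fndc5 was not analysed here. The cells were immortalized preadipocytes of the stromal vascular fraction, derived from inguinal white fat (129SVE strain, male mice). High binding cells (HBC) and low binding cells (LBC) were obtained by repeated sorting on bound FcsFNDC4, which is the extracellular part of mouse FNDC4 fused to a human Fc, and neither group was treated otherwise. At passage 20, RNA of 3 technical replicates per group was hybridised, with 1 array each. Each group was 1 sorted population, so the p-values below measure the spread between technical replicates and not between independent sorts. All 6 arrays were grouped by title, which their phenotype labels match, although LBC replicates 2 and 3 carry HBC in their source name.

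The fibronectin type III domain is a small beta sandwich fold found in many adhesion and matrix proteins. FNDC4 and its closest relative FNDC5 are short type I membrane proteins with 1 such domain outside the cell, and both can release it as a soluble hormone-like protein, called irisin in the case of FNDC5. FNDC3A and FNDC3B are larger intracellular membrane proteins with a row of these domains, and FNDC3B, also known as FAD104, promotes the differentiation of preadipocytes into adipocytes. The comparison was made in the study to search for receptors of soluble FNDC4; the values here ask how the genes of the ligand and its family were themselves expressed in the sorted cells.

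Fndc4 was the member called different, and its promoter is shown because of that. The 250 bases before its most upstream start site in RefSeq lie at chr5:31295936-31296185 on the minus strand of GRCm38.p6, and are printed in the direction of transcription with the matches to the searched motifs in capitals.
Fndc4: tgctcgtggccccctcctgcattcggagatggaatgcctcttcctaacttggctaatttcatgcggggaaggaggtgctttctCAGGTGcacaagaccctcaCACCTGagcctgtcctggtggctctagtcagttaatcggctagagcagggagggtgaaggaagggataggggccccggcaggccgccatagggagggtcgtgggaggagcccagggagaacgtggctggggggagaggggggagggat
Both capitalized stretches are E-boxes (CANNTG), one starting 167 and the other 148 bases before the start site, and each reads as the other on the opposite strand. Of 27025 windows of this length, 1 per gene, 66.1% held an E-box of any kind, which was the motif searched. This form (CAGGTG on either strand) was in 17.1% at least 1 time and in 2.04% 2 or more times. The form and its count were taken from the Fndc4 window, so these shares do not measure how unusual that window is. Searched on both strands and not matched in the Fndc4 window were the core of the interferon gamma activation site (TTCNNNGAA, in 7.14% of windows), the GC box (GGGCGG, 33%), CCAAT (34.5%) and TATAAA (13%). These are matches of letters, and no binding was measured. The window had 61.6% G and C, against a median of 52% over all windows. The other members with a window had 52.4% (Fndc8), 53.6% (Fndc9), 56% (Fndc1), 79.2% (Fndc3b) and 80.8% (Fndc5).

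Fndc4 transcripts were lower in HBC, the cells that bound more FNDC4. The intensity of Fndc4, on the linear scale of the arrays, was 93.1, 90.9 and 86.6 on the HBC arrays, in the order of their replicate numbers, while LBC gave 158, 168 and 157. All 3 HBC arrays lay below all 3 LBC arrays, and the distance between the groups was several times the spread within either. HBC averaged 90.2 ± 3.31 (SD, n = 3) and LBC 161 ± 6.55 (SD, n = 3), so that LBC exceeded HBC 1.78-fold. On the scale of log2(intensity + 16), used for all tests with 16 added to steady dim genes, the difference was -0.74 (HBC minus LBC, 95% confidence interval -0.91 to -0.56, limma adjusted p = 5.4e-08). A gene was called higher or lower in HBC at a Benjamini-Hochberg adjusted p under 0.05 and a fold above 1.5, taken on intensity + 16. By this rule 1 of the 7 members measured was called, Fndc4, where 3.67% of all genes were called, 2.54% higher and 1.13% lower. Fndc4 had the 122nd lowest log2 fold change of all 19938 genes. In whole cultures, fewer cells that express a gene and less RNA per cell cannot be told apart.

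**Figure D1:**
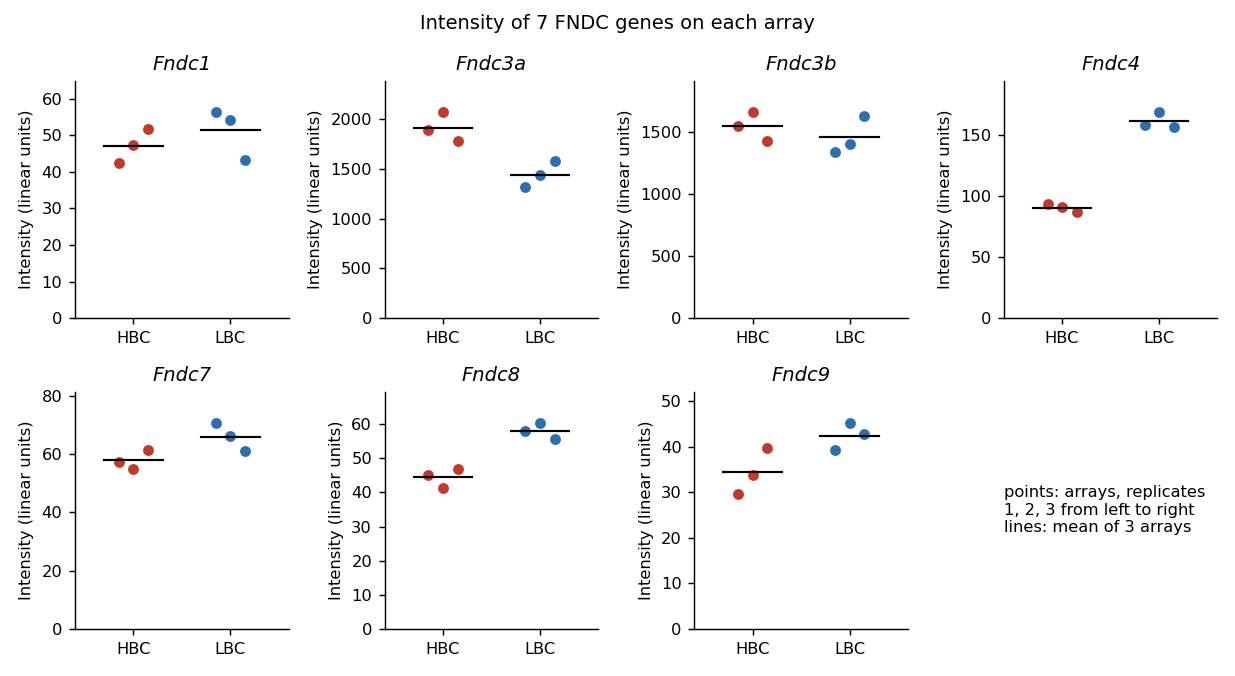
Intensity on each array (linear units, axes from 0) of the 7 FNDC genes measured, by group (HBC red, LBC blue, 3 arrays each); a black line marks each mean. The HBC and LBC arrays of Fndc4 (86.6 to 93.1 against 157 to 168), Fndc3a and Fndc8 do not overlap, and those of the other 4 genes do.

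The fold threshold lies inside the interval of Fndc4, and the level of the gene was not high. The methods of the study kept genes with a mean intensity above 100 in both groups; Fndc4 had a mean of 90.2 in HBC, so it was not among the genes left by that filter. Adgrf5 and Flrt3, both described below, also fell short of that filter. The mean of Adgrf5 was 23.5 in LBC, and that of Flrt3 was 72.6 in HBC. Adgrf5 is nevertheless among the top genes that the study lists from these arrays, so how the filter was applied to that list is not clear. Olfactory receptor genes, which preadipocytes are not known to use, served as a reference for dim signal. Their mean intensities ran from 13.8 to 83.7 (10th to 90th percentile over 1027 genes), and their log2 fold changes from -0.17 to 0.10 with a median of -0.04, so Fndc4 stood just above this range of intensity in HBC and well above it in LBC. Over the alternatives that gave a value, the log2 fold change of Fndc4 ran from -0.83 with 1 added in place of 16 to -0.59 with 50 added, and adjusted p was at most 0.0069, with the methods' t-test. Leaving out 1 array moved it from -0.76 to -0.71.

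Neither of the larger members, Fndc3a and Fndc3b, was called. Fndc3a, which in mice is needed for the adhesion of developing sperm cells to Sertoli cells, read 1888, 2070.4 and 1776 in HBC and 1316, 1437 and 1574 in LBC. Each HBC array lay above each LBC array, with a gap smaller than the range within either group. The means were 1912 ± 148 (SD, n = 3) and 1442 ± 129 (SD, n = 3), and the log2 fold change was 0.40 (95% confidence interval 0.22 to 0.59, limma adjusted p = 0.0014). This passed the p-value threshold but not the fold of 1.5, so Fndc3a was not called, and the methods' t-test gave an adjusted p of 0.10. Fndc3b, the adipogenic FAD104, read 1548, 1659 and 1425 in HBC and 1340.2, 1404 and 1626 in LBC. The groups overlapped, with LBC replicate 3 above HBC replicates 1 and 3. Its log2 fold change was 0.09 (95% confidence interval -0.10 to 0.27, adjusted p = 0.56), an interval that leaves out a fold of 1.5 in either direction.

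The 4 remaining members were dim in both groups, and none was called. Fndc8, best known as a testis transcript, read 45.2, 41.3 and 46.9 in HBC and 57.9, 60.4 and 55.5 in LBC. Its groups did not overlap, and its log2 fold change was -0.29 (95% confidence interval -0.46 to -0.12, limma adjusted p = 0.014). Adjusted p for Fndc8 rose above 0.05 in the methods' t-test (0.052) and without HBC replicate 1 (0.058), HBC replicate 2 (0.096) or LBC replicate 2 (0.0997). Fndc9 read 29.5, 33.9 and 39.7 in HBC and 39.3, 45.3 and 42.8 in LBC. HBC replicate 3 lay just above LBC replicate 1, and the log2 fold change was -0.22 (95% confidence interval -0.40 to -0.04, adjusted p = 0.092). Fndc7 read 57.4, 54.8 and 61.5 in HBC and 70.9, 66.2 and 60.97 in LBC, which overlapped at HBC replicate 3 and LBC replicate 3, with a log2 fold change of -0.15 (adjusted p = 0.25). Fndc1, whose product activates G protein beta-gamma signaling in rat heart cells, read 42.4, 47.3 and 51.6 in HBC and 56.3, 54.2 and 43.3 in LBC. The groups of Fndc1 overlapped widely, with a log2 fold change of -0.09 (95% confidence interval -0.28 to 0.10, adjusted p = 0.54).

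All 4 dim genes lay within the intensity range of the olfactory receptor genes in HBC and in LBC, so whether they were expressed is not shown by these values. Counted over the 7 members, the groups did not overlap for 3, where this held for 35.2% of all genes. Without the fold threshold 3 of 7 passed, where 18.3% of all genes did. The median log2 fold change was -0.15 over the members and -0.07 over all genes. The other FNDC genes of the array showed no difference of this size. Fndc3c1, Fndc10 and Fndc11 had log2 fold changes of -0.09, -0.05 and -0.06, with adjusted p from 0.54 to 0.74, and their groups overlapped. Fndc3c1 was dim, at a mean of 19.1 in HBC and 21.3 in LBC, while Fndc10 read 325 and 336 and Fndc11 read 214 and 223. The values of Fndc10 and Fndc11 turned to 0.04 and 0.03 after cyclic loess normalization.

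**Figure D2:**
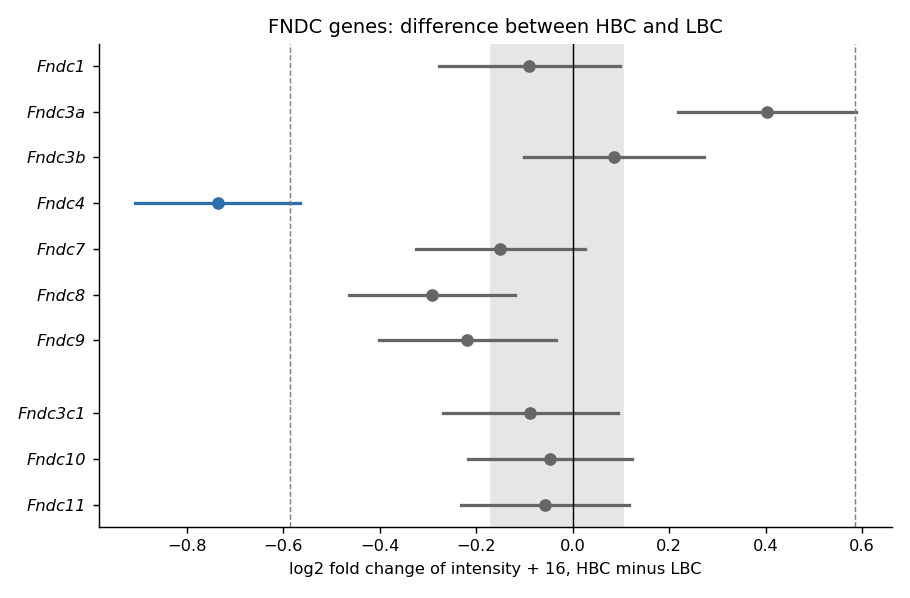
Differences of log2(intensity + 16) between HBC and LBC (HBC minus LBC) for the 7 members and, below them, 3 other FNDC genes, with bars for the 95% confidence interval from limma over 3 arrays per group. Dashed lines mark a fold of 1.5, the grey band the 10th to 90th percentile of olfactory receptor genes (-0.17 to 0.10); Fndc4, in blue, is the gene called lower, at -0.74.

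The genes beside Fndc4 on the chromosome were compared next, to see whether the difference extended along the locus. Among protein-coding genes in RefSeq order with a cluster of their own, Nrbp1, Krtcap3 and Ift172 precede Fndc4, and Gckr, Zfp512 and 4930548H24Rik follow it. None of the 6 was called. Ift172, which encodes a subunit of the transport machinery of cilia and is the next gene on one side, read 267, 281 and 262 in HBC and 269, 278 and 301 in LBC, a log2 fold change of -0.06. Gckr, the regulator of glucokinase in liver and the next gene on the other side, was dim at 49.3 ± 1.66 (SD, n = 3) and 55.3 ± 3.84 (SD, n = 3), with a log2 fold change of -0.13. The lowest value among them was that of Zfp512, at -0.17 (95% confidence interval -0.36 to 0.01, limma adjusted p = 0.19). Nrbp1 had a log2 fold change of 0.03, Krtcap3 of -0.04 and 4930548H24Rik of -0.12. The groups did not overlap for Gckr and Zfp512, both lower in HBC, and overlapped for the rest. Over all genes 35.2% did not overlap. 4930548H24Rik was dim, at 40.4 in HBC and 45.4 in LBC. Whether Gckr and 4930548H24Rik were expressed is not shown by such values, so they say little about the locus. The 95% confidence intervals of all 6 neighbours lay wholly above that of Fndc4, whose upper end was -0.56.

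**Figure D3:**
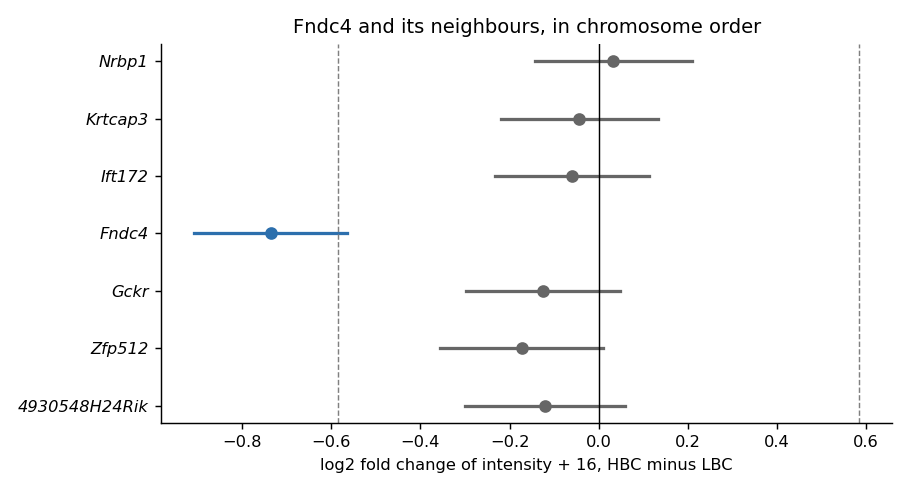
Differences of log2(intensity + 16) between HBC and LBC (HBC minus LBC) for Fndc4 and the 3 nearest genes measured on each side, in the order of the chromosome and not to distance, with bars for the 95% confidence interval from limma over 3 arrays per group. Fndc4 lies at -0.74 and its neighbours between -0.17 and 0.03; dashed lines mark a fold of 1.5.

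The genes with values most like those of Fndc4 over the 6 arrays were named by the smallest root mean square difference of log2 values, after the mean of each gene was taken off. Of 19937 genes, the closest was Rnf122, a ubiquitin ligase, with a root mean square difference of 0.043 against a median of 0.35 over all genes. It read 289, 297 and 273 in HBC and 471, 496 and 504 in LBC, a log2 fold change of -0.74. Clip4 (0.051), Fez1, an adaptor of axonal transport (0.051), Tpd52 (0.056) and B4galnt4, a glycosyltransferase (0.060), followed by the same measure. Their log2 fold changes were -0.65, -0.70, -0.80 and -0.66, and all 5 genes were called lower in HBC. Since the 6 points are 2 groups of 3 arrays, this likeness is mostly that of the difference between HBC and LBC, and it was used to choose these genes.

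**Figure D4:**
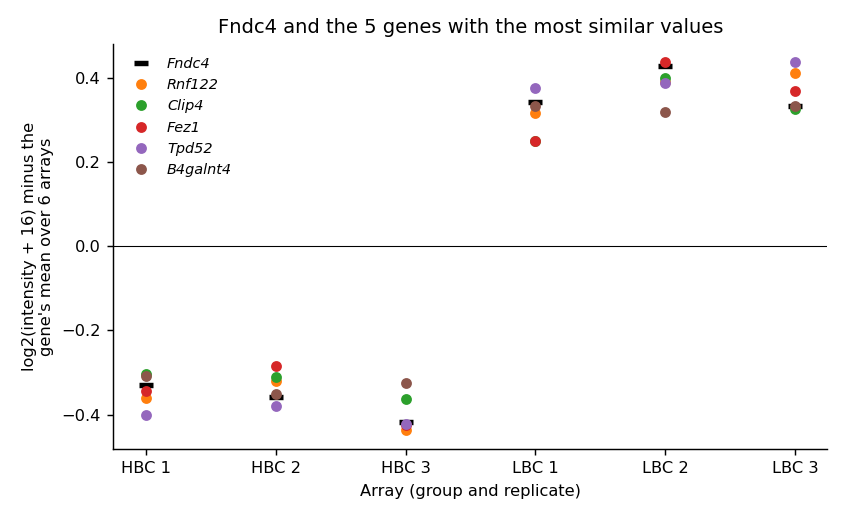
Values of log2(intensity + 16) minus the mean of each gene over 6 arrays, for Fndc4 (black dashes) and the 5 genes with the smallest root mean square difference from it (colored points), by array. All 6 genes lie below 0 on the HBC arrays and above 0 on the LBC arrays, with Fndc4 between -0.42 and -0.33 in HBC and between 0.33 and 0.43 in LBC.

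Genes listed for a known or possible part in the action or release of FNDC4 or irisin were mostly at similar levels in both groups. Adgrf5 (Gpr116), the receptor that the study proposed for FNDC4, was the 1 gene called of 10 measured, where 3.67% of all genes were called. The study picked Adgrf5 from these same arrays, so its call is not independent evidence. Apart from the arrays, the study reported more GPR116 RNA and protein in HBC than in LBC, and tested binding in other experiments. On the arrays, the HBC mean of Adgrf5 was 244 ± 4.72 (SD, n = 3), the LBC mean 23.5 ± 2.77 (SD, n = 3), and the log2 fold change was 2.72. The LBC mean lay within the range of dim signal, so the size of this difference is uncertain, and it ran from 2.00 with 50 added in place of 16 to 3.33 with 1 added. The integrin subunits Itgav and Itgb5, which together form a receptor of irisin, had log2 fold changes of 0.24 (adjusted p = 0.079) and 0.01 (adjusted p = 0.93), and Itgb1 had one of -0.02. For Itgav, limma adjusted p was 0.0059 after quantile normalization and 0.0030 after cyclic loess, but the methods' t-test gave 0.34. Itgav stayed under the fold threshold in every alternative. Ppargc1a, the coactivator that induces Fndc5 in muscle, averaged 55.8 ± 3.00 (SD, n = 3) in HBC against 70.6 ± 3.45 (SD, n = 3) in LBC. Its log2 fold change of -0.27 (limma adjusted p = 0.023) was under the fold threshold, and both means were within the intensity range of dim signal. Adjusted p rose to 0.088 after quantile normalization, 0.10 after cyclic loess and 0.059 in the methods' t-test. The mean of all clusters of Ppargc1a gave -0.39 (limma adjusted p = 0.00090), also under the fold threshold. Esrra, the partner of Ppargc1a, had a log2 fold change of -0.06. Bdnf, a neurotrophin that irisin induces in the brain, was at -0.27 (adjusted p = 0.028), also under the fold threshold. Adjusted p for Bdnf rose to 0.16 in the methods' t-test, 0.081 after median centring and 0.063 with a replicate block. After quantile normalization it fell to 0.0044 (limma). The sheddases Adam10 and Adam17, which cut many membrane proteins near the cell surface, and the convertase Furin had log2 fold changes of 0.07, -0.03 and -0.09 with adjusted p from 0.51 to 0.86.

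Beyond the FNDC genes, 83 other genes with fibronectin type III domains were measured, and 3 of them were called (3.61%), close to the background of 3.67%. Their median log2 fold change was -0.06, against -0.07 over all genes, and the groups did not overlap for 23 of the 83, where this held for 35.2% of all genes. Of 12 matrix proteins, Sned1, a secreted matrix glycoprotein, was called. It read 916, 984 and 903 in HBC and 341, 385 and 367 in LBC, so that every HBC array was far above every LBC array, with a log2 fold change of 1.32 (SE 0.086, limma adjusted p = 2.2e-13). Of 45 adhesion and guidance receptors, Flrt3, a membrane protein that binds latrophilins and UNC5 receptors, was called lower. Flrt3 read 78.8, 69.3 and 69.7 in HBC, within the range of dim signal, and 144, 127 and 157 in LBC. Its log2 fold change was -0.84 (limma adjusted p = 1.5e-08). The size of this difference is uncertain, as it ran from -0.96 with 1 added in place of 16 to -0.65 with 50 added. Of 26 intracellular and sarcomeric proteins, Mid2, a ubiquitin ligase of microtubules, was called higher at 0.61 on the log2 scale (298 ± 13.9 against 191 ± 15.8, SD, n = 3 each). The call of Mid2 was lost without HBC replicate 2 (0.58) or LBC replicate 1 (0.55), and with 50 added in place of 16 (0.54).

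**Figure D5:**
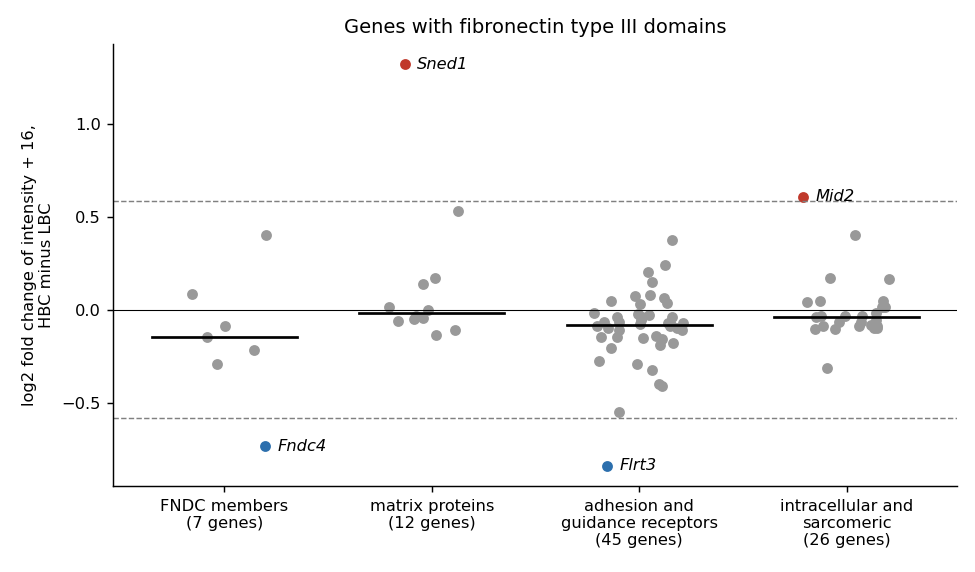
Differences of log2(intensity + 16) between HBC and LBC (HBC minus LBC) for each FNDC member and for 83 other genes with fibronectin type III domains in 3 lists, with black lines at the medians and dashed lines at a fold of 1.5. Genes called higher are in red and lower in blue and are named: Sned1 (1.32), Mid2 (0.61), Flrt3 (-0.84) and Fndc4 (-0.74).

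Over the whole series, the correlation of arrays across genes, which are not independent replicates, was 0.996 to 0.999 within and 0.980 to 0.986 between the groups. The preadipocyte label was checked on markers. Of 11 preadipocyte and mesenchymal markers, Dpp4 was within the range of dim signal (44.8 in HBC and 45.3 in LBC), Cd34 (134 and 189) and Thy1 (149 and 166) were not far above it, and the other 8, Pdgfra, Dlk1 and Pparg among them, had group means from 498 to 5049. The summed intensity of all 11 ran from 22458 to 25184 in HBC and from 20613 to 23931 in LBC. Of these genes Col3a1 was called higher and Dcn lower, 2 of 11 (18.2%) where 3.67% of all genes were called. The groups did not overlap for 9 of the 11, where this held for 35.2% of all genes. Over 6 markers of mature adipocytes the sum was 2755 to 2914 in HBC and 2063 to 2442 in LBC, with no gene called. Fabp4 (2363 in HBC and 1774 in LBC) made up most of it and Retn was at 187 and 120. Both were higher in HBC and under the fold threshold, Fabp4 at 0.42 (limma adjusted p = 0.0013) and Retn at 0.577 (limma adjusted p = 7.9e-06). The groups did not overlap for these 2 of the 6, where this held for 35.2% of all genes. Plin1 was at 136 and 137, and Adipoq, Lep and Cidec were within the range of dim signal. Markers of hepatocytes, a main source of FNDC4 in the body, had summed intensities from 385 to 409 in HBC and from 421 to 431 in LBC over 4 genes. None of the 4 was called, and their median log2 fold change was -0.08 against -0.07 over all genes. Alb, Ttr and Cyp3a11 were within the range of dim signal, and Apoa1 was at 242 in HBC and 254 in LBC. The sums of 8 macrophage and immune markers ran from 731 to 774 in HBC and from 791 to 859 in LBC, also with no gene called and a median log2 fold change of -0.14. Ptprc, Adgre1, Lyz2 and Cd74 were within the range of dim signal, while Csf1r (90.1 in HBC and 94.9 in LBC), Cd68 (174 and 188), Itgam (159 and 189) and Cd3e (143 and 140.5) were above it. The sums of 6 muscle, 5 endothelial and 4 epithelial markers overlapped between the groups with none called. Several were above the range of dim signal in both groups. Of the muscle markers these were Acta1 (745 in HBC and 755 in LBC), Des (243 and 234), Ckm (122 and 140) and Myod1 (102 and 111). Of the epithelial markers they were Krt8 (143 and 165), Krt18 (127 and 148) and Cdh1 (92.9 and 99.1). Among endothelial markers, Vwf alone was above it, and in LBC only (88.3). The part of other cell types in the difference of Fndc4 was not tested.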

How the data were processed

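Each of the 6 samples was hybridised to 1 Affymetrix mouse gene array, and samples were grouped by title. The study's methods name a later version of this array than the one whose annotation the row IDs match. The deposited intensity values, on a linear scale, came from Affymetrix Expression Console, run by the authors, per the labels; its version, the summary method and any scaling of arrays to each other were not given in the sources. Of 35556 transcript clusters, 21789 carried 1 gene symbol, 1621 several and 12146 none. The first were reduced to 19938 genes by the cluster with the highest mean intensity over 6 arrays; each member had 1 cluster only. Gene IDs of 21698 of these 21789 were found among the RefSeq genes of GRCm38.p6, which gave the order of neighbours; no build is named for the array annotation.

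Log2(intensity + 16) was fitted with limma 3.58.1 in R 4.3.3 (lmFit, eBayes; 24.9 prior and 4 residual degrees of freedom), without a replicate block, and adjusted by Benjamini-Hochberg over all genes. The fit was run on simulated data with independent noise at the spread of these technical replicates, which does not cover variation between sorts. An exact permutation test of 3 against 3 arrays cannot go below p = 0.10 and was not used. The members are defined by symbol, but the family, the lists and the motifs were chosen with earlier results of these data known. Named are all members, other FNDC genes, 3 neighbours per side, 5 genes most like Fndc4, all genes of the FNDC4 and irisin list, and up to 4 called genes per list. Alternatives were normalization by quantiles, cyclic loess or medians, intensity filters, the methods' t-test, trended or robust priors, an offset of 1 or 50, other cluster choices, a replicate block, other fold thresholds, and leaving out each array. Promoter windows came from the RefSeq table of GRCm38.p6, which held 6 of the 8 members; the most upstream start was used. The number of arrays limits the precision.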

Additional observations from a re-analysis of the deposited data

How the results depend on the processing

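Fndc4 kept its direction in all 21 alternatives that gave a value and its call in 20 of them, the exception being a fold above 2 (-0.74). With a mean above 100 in both groups it was not among the genes tested, so no value was given and 0 members were called. The member count was 3 without a fold threshold (1 higher, 2 lower) and 0 at a fold above 2. The count of other genes with fibronectin type III domains was 14 without a fold threshold and 1 at a fold above 2, and that of all genes 3655 and 280. No other member changed direction in any alternative. Replicate numbers were not used as pairs in the main fit. Deviations from the group means had correlations of -0.096, -0.24 and -0.50 between arrays sharing a number. HBC replicate 3 was closest to LBC replicate 1 (0.49). Deviations sum to 0 within each group, so these correlations depend on one another and cannot settle whether arrays were paired. With the replicate block Fndc4 was again at -0.74, with 1 member called and 732 genes in all, and no other call named here changed. Values of uncalled genes near 0 changed sign. After cyclic loess these were Fndc10 (0.037), Fndc11 (0.027), Krtcap3 (0.040), Ift172 (0.025), Esrra (0.025) and Adam17 (0.030). After median centring they were Krtcap3 (0.0011), Itgb1 (0.021) and Adam17 (0.016), and after quantile normalization Krtcap3 (0.0020). Leaving out an array, Nrbp1 ran from -0.013 to 0.070, Krtcap3 from -0.096 to 0.0075, Itgb5 from -0.035 to 0.058, Itgb1 from -0.073 to 0.041 and Adam17 from -0.072 to 0.037. Clip4 and B4galnt4 lost their calls after cyclic loess (-0.57 each) and with an offset of 50 (-0.56 each). The cause of these changes was not tested. Dim signal limits Fndc1, Fndc7, Fndc8 and Fndc9 in both groups.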
